A study of Mus musculus with 12 samples.

Results

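A set of 6 genes of cytokine signalling were followed here in mouse brain myeloid cells, chosen by symbol from the 31053 genes listed for each library. These 6 genes were the suppressors of cytokine signalling Socs1, Socs2, Socs3 and Cish, the serine/threonine kinase Pim1 and the transcription factor Stat3. Live CD45+ CD11b+ cells, which in brain are chiefly microglia, its own macrophages, had been sorted from whole brains of 12 male C57BL/6J mice at postnatal day 90, and each library came from 1 animal. In DNC-NONE (n = 3) and DNC-INHIB (n = 3) brains were broken up mechanically by cold Dounce homogenization, and in ENZ-NONE (n = 3) and ENZ-INHIB (n = 3) with enzymes at a warm temperature. The 2 INHIB groups received the transcription inhibitors actinomycin D and triptolide from perfusion onwards and the translation inhibitor anisomycin from dissection onwards, and the 2 NONE groups received no inhibitor. No group carried a transgene or a deletion. Libraries were prepared in 2 batches per the labels, with the digested libraries ENZ-NONE replicate 4, ENZ-NONE replicate 5 and ENZ-INHIB replicate 1 in batch 1 beside the Dounce libraries DNC-NONE replicate 1, DNC-NONE replicate 2 and DNC-INHIB replicate 4, and the other 6 in batch 2.

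Cytokines of the interleukin-6, interferon and growth hormone families bind receptors without kinase activity of their own, which carry Janus kinases. The kinases phosphorylate STAT proteins, which enter the nucleus and bind GAS elements, palindromes of the form TTCNNNGAA. SOCS proteins are themselves products of STAT-responsive genes and close a negative feedback loop. Socs3 blocks receptors that share gp130, Socs1 blocks interferon signalling, and Socs2 and Cish act mainly on receptors that use STAT5. Pim1 is a further STAT target whose kinase promotes survival, and Stat3 is both the mediator of the gp130 signal and its own target. In microglia Socs3 restrains responses to interleukin-6 and interferon.

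All 6 members are protein-coding genes, and positions are given for GRCm38 (mm10) with the GENCODE M21 annotation. Socs3 lies at chr11:117966079-117970047 on the minus strand, Socs1 at chr16:10782240-10785536 on the minus strand, Socs2 at chr10:95385362-95417180 on the minus strand and Cish at chr9:107296026-107302784 on the plus strand. Pim1 lies at chr17:29490753-29496112 on the plus strand, opposite the antisense gene Gm26885. Stat3 lies at chr11:100885098-100939540 on the minus strand, where its span meets that of Stat5a on the other strand. Cish overlaps Gm17040 and Gm17041 on the other strand. Whether the counting kept strands apart is not given in the sources used here. It was therefore not checked whether reads of the overlapping genes were counted separately for these 3 members.

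Promoter sequences are shown for the 3 members whose counts moved together below, and for Cish as the member with a pair of GAS elements. They come from RefSeq (GRCm38.p6), which gave an entry for 5 of the 6 members (Socs2 excepted). Bases are on the sense strand, 5′ to 3′, and capitals mark TTCNNNGAA. The Pim1 and Stat3 stretches hold all upstream bases that lie in no annotated exon, and the Socs3 stretch is the longest unbroken run of such bases.
Socs3, chr11:117969452-117969616, minus strand: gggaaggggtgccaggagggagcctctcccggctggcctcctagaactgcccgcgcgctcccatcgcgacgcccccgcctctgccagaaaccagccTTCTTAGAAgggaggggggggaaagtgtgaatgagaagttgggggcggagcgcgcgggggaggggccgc
Pim1, chr17:29490535-29490752, plus strand: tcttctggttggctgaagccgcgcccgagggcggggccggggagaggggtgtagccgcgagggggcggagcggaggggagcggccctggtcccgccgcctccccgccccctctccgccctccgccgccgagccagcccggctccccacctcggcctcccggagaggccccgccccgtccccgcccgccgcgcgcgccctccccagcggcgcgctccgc
Stat3, chr11:100939541-100939790, minus strand: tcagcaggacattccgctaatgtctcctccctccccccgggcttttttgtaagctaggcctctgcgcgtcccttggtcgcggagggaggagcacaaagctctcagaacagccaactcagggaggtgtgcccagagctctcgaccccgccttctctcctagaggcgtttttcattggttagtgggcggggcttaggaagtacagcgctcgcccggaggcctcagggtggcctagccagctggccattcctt
Cish, chr9:107296655-107296684, plus strand: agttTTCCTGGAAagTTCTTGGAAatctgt
The Socs3 stretch lies inside the span of the gene, intronic to a longer annotated transcript, and its element began 154 bases before the RefSeq start (position -154). In Cish the elements began at positions 1 and 12 counted from the RefSeq start. All 250 bases before that start lie in an annotated exon of Cish, so the 30 bases shown were cut around the elements. TTCNNNGAA was present in 8.30% of the 32851 promoter windows of 300 bases in the table, so a match was common, and it reads the same on both strands. The windows of Pim1 (2 entries), Stat3 and Socs1 held no match to it. None of the 5 members with an entry held the longer GAS form, TTC and GAA with 4 bases between them (6.95% of windows), the AP-1 element TGANTCA (7.81%), the cyclic AMP element TGACGTCA (1.79%), a CArG box (1.63%), an NF-kB site (4.51%) or TATAAA (13.6%). These matches describe letters in a short window and are not evidence of binding.

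The deposited matrices held 28426 cells and 33742845 UMIs (unique molecular identifiers, each standing for 1 captured RNA molecule). After removal of shallow barcodes 18821 cells (66.2%) and 26838008 UMIs were kept, 853 to 2185 cells and 1059783 to 3233159 UMIs per library. Of 18585 distinct kept barcodes, 236 occurred in more than 1 library, 0 to 12 per pair of libraries. All 12 microglia markers checked were detected in every library, with summed levels of 40151 to 46048 CPM (UMIs scaled to a library total of 1000000). The lowest sums were those of ENZ-NONE replicate 6 (40151) and DNC-NONE replicate 1 (41828), and the other 10 libraries began at 43518. These same libraries stood apart in the counts of Socs3, Pim1 and Stat3 described next, so the group comparisons, shares and pooled cluster levels of these members are given with and without them. They belong to different groups and different batches.

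Socs3, the feedback inhibitor of gp130 receptors, was the member that varied most between libraries. Its UMI counts in DNC-NONE replicates 1, 2 and 3 were 824, 35 and 75, corresponding to 330.1, 33.0 and 41.6 CPM. In DNC-INHIB replicates 4, 5 and 6 it had 107, 104 and 140 UMIs (50.9, 39.6 and 43.3 CPM). Thus 1 of the 3 uninhibited Dounce libraries lay far above the others, and the remaining pair lay within or below the inhibited range. The ENZ-NONE replicates 4, 5 and 6 held 171, 183 and 2688 Socs3 UMIs (78.6, 119 and 985 CPM). The ENZ-INHIB replicates 1, 2 and 3 held 113, 100 and 61 UMIs (60.9, 37.7 and 23.8 CPM). All 3 uninhibited digestion libraries therefore lay above all 6 libraries made with inhibitors, whereas they overlapped DNC-NONE through its replicate 1. The share of all genes that separate groups in such a way is not given. Orders of this kind, here and for the members below, are therefore descriptions only. Group means ± SD (n = 3 each) were 394 ± 512 CPM for ENZ-NONE and 135 ± 169 for DNC-NONE, whereas those of the inhibited groups were 44.6 ± 5.79 (DNC-INHIB) and 40.8 ± 18.7 (ENZ-INHIB). In this order ENZ-NONE and DNC-NONE did not differ beyond their spread, nor did the 2 inhibited groups.

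**Figure D1:**
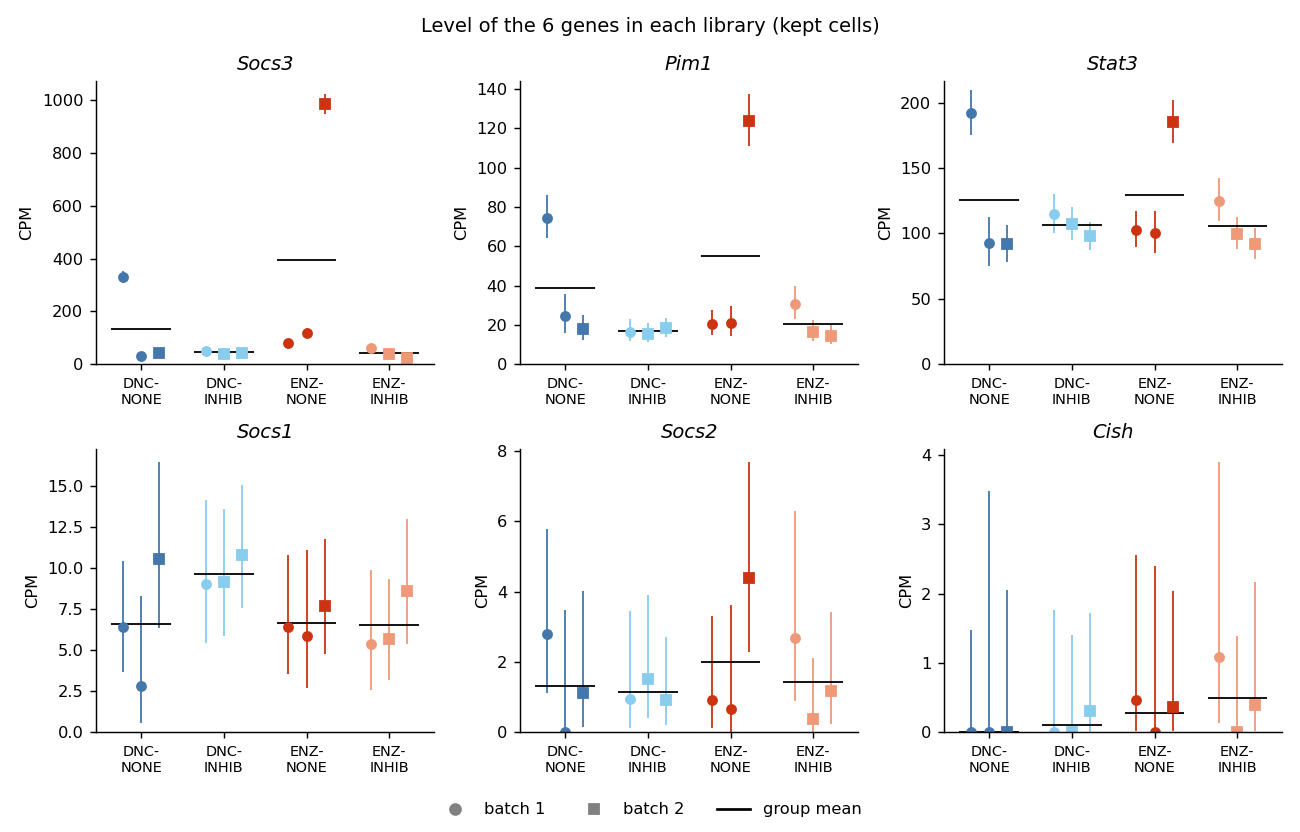
CPM (UMIs scaled to a library total of 1000000, linear axes from 0) of the 6 members in each of the 12 libraries, with 95% Poisson intervals that cover counting error only, circles for batch 1, squares for batch 2 and a line at the group mean. Socs3 reached 985 CPM in ENZ-NONE replicate 6 and 330.1 in DNC-NONE replicate 1, and the highest Pim1 and Stat3 points belong to the same 2 libraries.

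Pim1, which encodes a survival kinase, was highest in the same 2 libraries as Socs3, at a lower count. DNC-NONE replicates 1, 2 and 3 had 74.5, 24.5 and 17.8 CPM of Pim1 (186, 26 and 32 UMIs), and DNC-INHIB replicates 4, 5 and 6 had 16.7, 15.6 and 18.2 CPM. ENZ-NONE replicates 4, 5 and 6 had 20.7, 20.8 and 124 CPM of Pim1 (45, 32 and 338 UMIs), and ENZ-INHIB replicates 1, 2 and 3 had 30.7, 16.6 and 14.4 CPM. Apart from ENZ-NONE replicate 6 and DNC-NONE replicate 1, every library lay between 14.4 and 30.7 CPM, and ENZ-NONE overlapped DNC-NONE and ENZ-INHIB. All 3 ENZ-NONE libraries lay above those of DNC-INHIB (highest 18.2 CPM), its replicates 4 and 5 by a few CPM. Stat3 was detected more evenly. It had 192, 92.5 and 91.6 CPM in DNC-NONE replicates 1, 2 and 3 and 115, 107 and 97.7 CPM in DNC-INHIB replicates 4, 5 and 6. In ENZ-NONE replicates 4, 5 and 6 Stat3 had 103, 100.3 and 185 CPM, and in ENZ-INHIB replicates 1, 2 and 3 it had 125, 99.5 and 91.6 CPM. The same 2 libraries were again highest, and the remaining 10 spanned 91.6 to 125 CPM.

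Socs1, the feedback inhibitor of interferon signalling, did not share this pattern. It had 6.41, 2.83 and 10.5 CPM in DNC-NONE replicates 1, 2 and 3 (16, 3 and 19 UMIs) and 9.04, 9.13 and 10.8 CPM in DNC-INHIB replicates 4, 5 and 6 (19, 24 and 35 UMIs). ENZ-NONE replicates 4, 5 and 6 had 6.43, 5.86 and 7.69 CPM of Socs1 (14, 9 and 21 UMIs), and ENZ-INHIB replicates 1, 2 and 3 had 5.39, 5.65 and 8.58 CPM (10, 15 and 22 UMIs). All groups overlapped but for DNC-INHIB, whose 3 libraries lay above those of ENZ-NONE and ENZ-INHIB. Socs2, which restrains growth hormone signalling, was near the limit of detection with 0 to 12 UMIs per library. Its highest counts were 12 UMIs in ENZ-NONE replicate 6 and 7 in DNC-NONE replicate 1. Cish was scarcer still, with 1 UMI in DNC-INHIB replicate 6, 1 each in ENZ-NONE replicates 4 and 6, 2 in ENZ-INHIB replicate 1 and 1 in ENZ-INHIB replicate 3. The other 7 libraries had 0 Cish UMIs, which allows a level of up to 1.13 to 2.83 CPM depending on depth. No difference in Socs2 or Cish was detectable at this depth.

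Levels were next compared between groups on the UMI sums of the 12 libraries with edgeR's quasi-likelihood test. A gene was called when its Benjamini-Hochberg adjusted p over all 9882 genes tested was under 0.05 and its log2 fold change exceeded 0.58 in either direction. Socs1, Socs3, Pim1 and Stat3 entered the test, whereas Socs2 and Cish fell under the low-count filter. Between ENZ-NONE and DNC-NONE, the effect of the dissociation method without inhibitors, 0 of the 4 members were called, against 0.617% of all genes. Socs3 was higher by 1.54 on the log2 scale (SE 0.75, adjusted p = 0.594). Pim1 differed by 0.53 (adjusted p = 0.873), Stat3 by 0.08 (adjusted p = 0.982) and Socs1 by -0.0029. DESeq2 also called 0 members here, and 0 had an unadjusted p under 0.05 by either tool, against 8.59% of all genes in edgeR.

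Between ENZ-NONE and ENZ-INHIB, which asks what the inhibitors change during digestion, 0 of 4 members were called (0.385% of all genes). Socs3 differed by 3.40 on the log2 scale (SE 0.85, adjusted p = 0.131) and Pim1 by 1.63 (SE 0.59, adjusted p = 0.775). Both had an unadjusted p under 0.05 in edgeR, as did 5.25% of all genes, and Socs3 alone in DESeq2, which called 0. Between ENZ-NONE and DNC-INHIB 0 of 4 members were called (0.799% of all genes). There Socs3 was higher by 3.25 (SE 0.83, adjusted p = 0.0846) and Pim1 by 1.86 (SE 0.59, adjusted p = 0.214). Again 2 members had an unadjusted p under 0.05 in edgeR (9.55% of all genes), and the same 2 in DESeq2, which called 0. Stat3 differed by 0.37 and 0.36 in these comparisons and Socs1 by 0.07 and -0.47, none with an adjusted p under 0.05. The 3 comparisons share the ENZ-NONE libraries, so they are not independent of each other.

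Among the remaining contrasts, the inhibitors made no called difference to any gene after cold Dounce (DNC-NONE against DNC-INHIB, 0 of 4 members, 0% of all genes). Socs3 differed there by 1.70 on the log2 scale (SE 0.84, adjusted p = 1.00) and Pim1 by 1.33 (SE 0.63, adjusted p = 1.00), with Pim1 alone at an unadjusted p under 0.05 (4.73% of all genes) and 0 calls in DESeq2. ENZ-INHIB against DNC-INHIB, the methods compared with inhibitors in both, gave 0 of 4 members called (0.152% of all genes). The Socs3 difference was -0.15 (SE 0.92), and 0 members had an unadjusted p under 0.05 (8.41% of all genes). ENZ-INHIB against DNC-NONE gave 0 of 4 (0.101% of all genes), with Socs3 at -1.86 (SE 0.86, adjusted p = 0.465) and as the 1 member with an unadjusted p under 0.05 (10.5% of all genes). The difference of the inhibitor effects after digestion and after Dounce also gave 0 of 4 (0.172% of all genes). It was 1.70 for Socs3 (SE 1.18, adjusted p = 1.00), 0 members had an unadjusted p under 0.05 (3.57% of all genes), and DESeq2 called 0 members in all 3 of these contrasts.

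Single libraries decided these values. Without ENZ-NONE replicate 6 the Socs3 log2 fold change against DNC-NONE was -0.58, against DNC-INHIB 1.15 (adjusted p = 0.563) and against ENZ-INHIB 1.31 (adjusted p = 0.952). Without DNC-NONE replicate 1 Socs3 was called against DNC-INHIB (adjusted p = 0.0182) and ENZ-INHIB (adjusted p = 0.0247), and its DNC-NONE difference from DNC-INHIB was -0.22. In that fit 0.565% of all genes were called higher against DNC-INHIB and 0.514% against ENZ-INHIB. Leaving out ENZ-NONE replicate 4 also gave a Socs3 call against DNC-INHIB (adjusted p = 0.0178) and ENZ-INHIB (adjusted p = 0.0209), and so did leaving out ENZ-NONE replicate 5 (adjusted p = 0.0384 and 0.0474). The shares of all genes called without ENZ-NONE replicate 4 or 5 are not given. With ENZ-NONE replicate 6 and DNC-NONE replicate 1 both left out, a choice made after their Socs3 counts were seen, Socs3 was called in all 3 comparisons. Its log2 fold change was then 1.36 against DNC-NONE (adjusted p = 0.00966), 1.15 against DNC-INHIB (adjusted p = 0.00418) and 1.32 against ENZ-INHIB (adjusted p = 0.00156). In the same order 0.467, 0.457 and 0.416% of all genes were called higher. Since both libraries were left out for their Socs3 levels, these calls are descriptions and not tests of Socs3. No other member was called in these left-out fits. Without ENZ-NONE replicate 6 the Pim1 log2 fold change was -1.02 against DNC-NONE, 0.31 against DNC-INHIB (adjusted p = 0.891) and 0.083 against ENZ-INHIB (adjusted p = 0.997), and with both left out it was 0.043, 0.31 and 0.083. The Pim1 difference between DNC-NONE and DNC-INHIB was 0.27 without DNC-NONE replicate 1. Stat3 without both libraries differed by 0.17 from DNC-NONE, -0.039 from DNC-INHIB and -0.023 from ENZ-INHIB. Socs3 in ENZ-INHIB against DNC-NONE was at 0.062 without DNC-NONE replicate 1, and its difference of inhibitor effects was -0.42 without ENZ-NONE replicate 6 and 3.63 without DNC-NONE replicate 1. With all libraries, Socs3 was also called against DNC-INHIB on sums of thinned cells (adjusted p = 0.0447) and in microglia-like cells alone (adjusted p = 0.0421). The shares of all genes called under these settings are not given. Without a low-count filter 1 or 2 members were called in all contrasts but ENZ-INHIB against DNC-INHIB. That fit used a spread of 0.668 for Socs3 in place of 28.0, at a similar deviance (493 and 488). The calls without the filter are therefore not read as differences. Within batch 1 the mean Socs3 level was 98.9 CPM for the 2 ENZ-NONE libraries, 182 for the 2 of DNC-NONE, 50.9 for the 1 of DNC-INHIB and 60.9 for the 1 of ENZ-INHIB. Within batch 2 it was 985 CPM for the 1 ENZ-NONE library, 41.6 for the 1 of DNC-NONE, 41.4 for the 2 of DNC-INHIB and 30.7 for the 2 of ENZ-INHIB, so ENZ-NONE was above both inhibited groups in each batch.

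**Figure D2:**
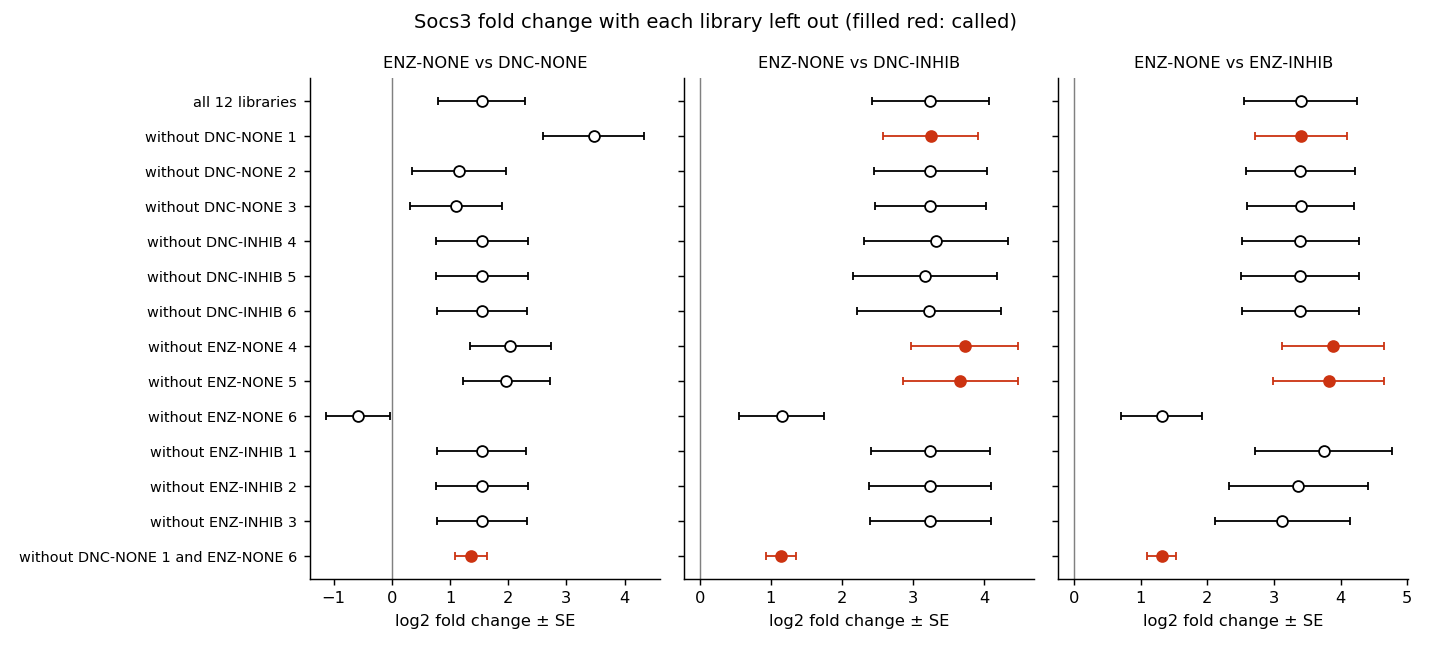
Socs3 log2 fold change (points) with its standard error (bars) in the 3 comparisons of ENZ-NONE, with all 12 libraries and with each library left out, filled red where called. The value against DNC-NONE runs from -0.58 without ENZ-NONE replicate 6 to 3.47 without DNC-NONE replicate 1.

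Single cells were then examined. So that depth did not set the shares, every cell was thinned at random to 1000 UMIs, and a cell with at least 1 UMI of a gene counted as positive. The share of Socs3-positive cells was 22.9, 3.63 and 4.16% in DNC-NONE replicates 1, 2 and 3 and 4.6, 4.0 and 4.17% in DNC-INHIB replicates 4, 5 and 6. It was 6.37, 8.68 and 45.8% in ENZ-NONE replicates 4, 5 and 6 and 5.66, 3.82 and 2.39% in ENZ-INHIB replicates 1, 2 and 3. Without thinning the shares ran from 3.78% in ENZ-INHIB replicate 3 to 55.1% in ENZ-NONE replicate 6. All ENZ-NONE shares were above those of the inhibited libraries, and of the 9 libraries outside ENZ-NONE only DNC-NONE replicate 1 reached the lowest of them. The mean share was 20.3 ± 22.1% in ENZ-NONE (SD, n = 3) and 6.15 ± 6.35% in the other libraries (n = 9), a difference of 14.1 percentage points (two-sided exact permutation over 220 splits, p = 0.10, and within batches p = 0.133). Without ENZ-NONE replicate 6 the difference was 1.37 points (exact permutation p = 0.400) and without DNC-NONE replicate 1 it was 16.2 points (exact permutation p = 0.0121). Without both it was 3.47 points (exact permutation p = 0.0444, within batches p = 0.200). The p-values without DNC-NONE replicate 1 and without both are the smallest that these splits allow. Since these libraries were singled out by their Socs3 levels, such values are descriptions and not tests of Socs3. Against single groups the difference was 10.1 points from DNC-NONE (exact p = 0.500), 16.0 from DNC-INHIB and 16.3 from ENZ-INHIB (exact p = 0.10 for both, the smallest that 3 against 3 allows).

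Positive cells also differed in how much Socs3 they carried. Before thinning, a positive cell held on average 1.02 to 1.17 Socs3 UMIs in the 6 inhibited libraries, 1.33, 1.40 and 2.79 in ENZ-NONE replicates 4, 5 and 6, and 1.55, 1.03 and 1.06 in DNC-NONE replicates 1, 2 and 3. The highest count in a single cell was 16 UMIs, in ENZ-NONE replicate 6, where 580 cells held at least 2. DNC-NONE replicate 1 had 193 such cells, ENZ-NONE replicates 4 and 5 had 33 and 28, and the other 8 libraries had 1 to 14 each. No cell type in this sort is known to lack Socs3, so the share that free RNA alone would give was not estimated.

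For Pim1 and Stat3 the same 2 libraries held the largest shares of positive cells. Pim1-positive cells made up 6.04% of DNC-NONE replicate 1 and 10.5% of ENZ-NONE replicate 6, and 1.29 to 2.72% of each other library. Their mean in ENZ-NONE was 4.57 ± 5.16% (SD, n = 3) against 2.21 ± 1.52% in the other 9 libraries (exact permutation p = 0.300). Stat3-positive cells made up 18.3% of DNC-NONE replicate 1 and 16.3% of ENZ-NONE replicate 6, and 8.0 to 11.6% of each other library. Without ENZ-NONE replicate 6 the Pim1 difference turned from 2.36 to -0.618 points (exact permutation p = 0.836), and without both libraries it was -0.139 points (exact permutation p = 1.00). The Stat3 difference between ENZ-NONE and the other libraries was 1.33 points (exact permutation p = 0.664), -0.939 without ENZ-NONE replicate 6 (exact permutation p = 0.909) and 0.0480 without both. The Socs1 difference was -0.150 points (exact permutation p = 0.373). Socs1-positive cells never exceeded 1.10% of a library, Socs2-positive cells 0.515% and Cish-positive cells 0.147%.

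Fos, the immediate early gene that marks acute activation, served as the reference for cells that had responded. Fos-positive cells made up 12.7, 14.8 and 38.4% of ENZ-NONE replicates 4, 5 and 6 and 3.32, 0.117 and 0.215% of DNC-NONE replicates 1, 2 and 3. In the 6 inhibited libraries they made up 0.0630 to 0.294%. The ENZ-NONE shares were thus separated from all other libraries, by a mean of 21.5 points (exact permutation p = 0.00909, within batches p = 0.0222). Both p-values are the smallest that these splits allow. The study had already reported Fos as raised after digestion without inhibitors in these data, so they restate a known difference. DNC-NONE replicate 1, with 22.9% Socs3-positive cells, was 3.32% Fos-positive, whereas ENZ-NONE replicate 5, with 8.68% Socs3-positive cells, was 14.8% Fos-positive. The order of the libraries by Socs3 therefore differed from their order by Fos.

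**Figure D3:**
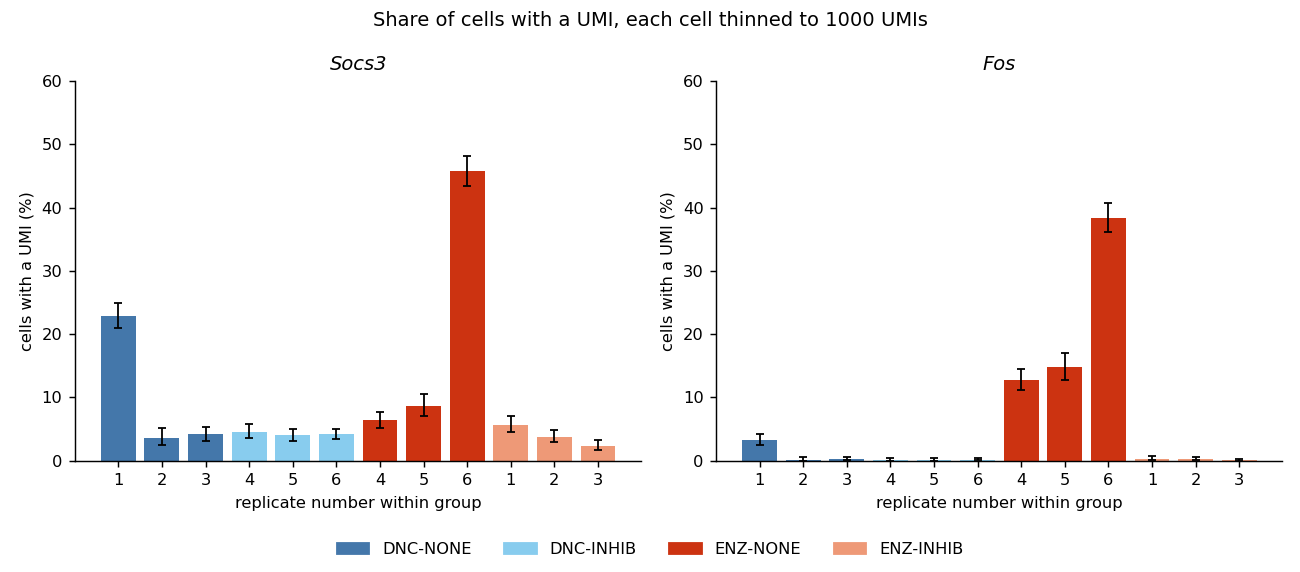
Percent of cells with at least 1 UMI of Socs3 (left) and Fos (right) in each library after thinning every cell to 1000 UMIs, with 95% Clopper-Pearson intervals that cover counting error only. Fos is raised in all 3 ENZ-NONE libraries (12.7 to 38.4%), whereas Socs3 is highest in ENZ-NONE replicate 6 (45.8%) and DNC-NONE replicate 1 (22.9%).

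Co-detection of Socs3 with Fos was measured in the 4 libraries with at least 20 Fos-positive cells. In ENZ-NONE replicate 4, 30 of 200 Fos-positive cells also held Socs3, against 12.7 expected if the genes were detected independently. In ENZ-NONE replicate 5 there were 23 of 166 (14.4 expected), and in ENZ-NONE replicate 6 there were 399 of 671 (307 expected). DNC-NONE replicate 1 had 20 double-positive cells of 61 (14.0 expected). The excess over independence was thus 2.35-, 1.60-, 1.30- and 1.43-fold in these libraries. This ratio is bounded by the share of positive cells, so it does not rank libraries whose shares differ. The odds ratios, in the same order, were 3.27, 1.91, 2.46 and 1.67, which placed ENZ-NONE replicate 6 above replicate 5. Put as shares, 15% of Fos-positive cells in ENZ-NONE replicate 4 (95% Clopper-Pearson interval 10.4 to 20.7%) and 5.11% of Fos-negative cells held Socs3. In ENZ-NONE replicate 5 the shares were 13.9% (8.99 to 20.1%) and 7.77%, and in ENZ-NONE replicate 6 they were 59.5% (55.6 to 63.2%) and 37.3%. In DNC-NONE replicate 1 they were 32.8% (21.3 to 46.0%) and 22.6%. The Fos-positive share was higher in 4 of 4 libraries by a mean of 12.1 points (range 6.08 to 22.1), with a two-sided exact sign-flip p of 0.125, the smallest that 4 libraries allow. The other 8 libraries held 1 to 4 Fos-positive cells each and 1 double-positive cell in all, in DNC-INHIB replicate 6.

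Within ENZ-NONE the share of Socs3-positive cells rose with the number of Fos UMIs in the cell. For 0, 1, 2 to 4 and 5 or more Fos UMIs it was 5.11, 7.14, 15.6 and 27.5% in ENZ-NONE replicate 4 and 7.77, 8.75, 14.5 and 29.2% in replicate 5. In ENZ-NONE replicate 6 it was 37.3, 49.1, 58.3 and 68.2%. The 3 libraries shared the direction but not the starting level. Cells with no Fos UMI in ENZ-NONE replicate 6 were Socs3-positive more often than the most Fos-rich cells of replicates 4 and 5, by their point values. In DNC-NONE replicate 1 the share was 22.6% of cells with 0 Fos UMIs and 32.7% of the 55 cells with 1, and 6 cells held more.

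**Figure D4:**
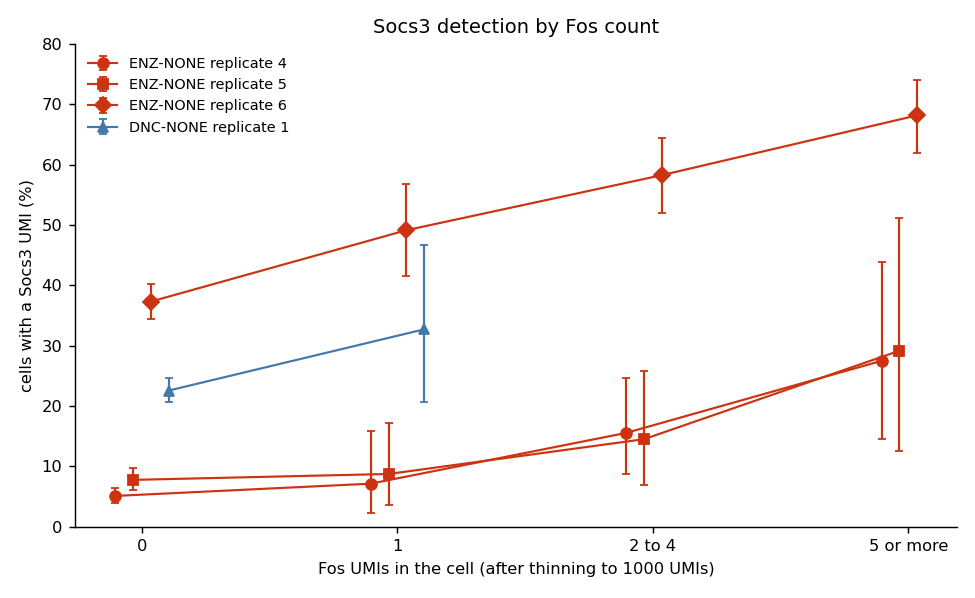
Percent of cells with a Socs3 UMI against the number of Fos UMIs in the same cell after thinning, in the 3 ENZ-NONE libraries and DNC-NONE replicate 1, with 95% Clopper-Pearson intervals and classes of at least 20 cells. The share climbs from 37.3 to 68.2% in ENZ-NONE replicate 6 and from 5.11 to 27.5% in replicate 4.

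Most Socs3-positive cells nevertheless held no Fos UMI, though only narrowly so in ENZ-NONE replicate 6. A cell without a Fos UMI may still have held Fos RNA that was not captured or was lost on thinning. In ENZ-NONE replicate 6 the Fos-positive share was 42.4% before thinning and 38.4% after. Fos was detected in 30 of the 100 Socs3-positive cells of ENZ-NONE replicate 4, in 23.7% of those in replicate 5 and 49.8% of those in replicate 6, and in 4.75% of those in DNC-NONE replicate 1. Among Fos-negative cells alone, the Socs3-positive share was 5.11, 7.77 and 37.3% in ENZ-NONE replicates 4, 5 and 6 and 22.6, 3.64 and 4.16% in DNC-NONE replicates 1, 2 and 3. It was 2.39 to 5.68% in the 6 inhibited libraries, which overlapped the lowest ENZ-NONE value. The mean of the Fos-negative shares was 16.7 ± 17.9% in ENZ-NONE (SD, n = 3) against 6.11 ± 6.23% in the other 9 libraries (difference 10.6 points, exact permutation p = 0.109, within batches p = 0.156). Without ENZ-NONE replicate 6 this difference was 0.330 points, and without DNC-NONE replicate 1 it was 12.7 points (exact permutation p = 0.0242). DNC-NONE replicate 1 was singled out by its Socs3 level, so that p-value is a description and not a test of Socs3.

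Socs3 was paired in the same way with all 12 listed immediate early genes, Fos included. Of these, 9 had at least 20 positive cells in ENZ-NONE replicates 4 and 5 and 11 in replicate 6, and every one of them was found with Socs3 more often than independence gives. The ratio of observed to expected cells ran from 1.29 to 3.24 in ENZ-NONE replicate 4 (median 2.24), from 1.26 to 2.59 in replicate 5 (median 1.66) and from 1.04 to 1.59 in replicate 6 (median 1.28). In DNC-NONE replicate 1, 7 of the 12 had that many positive cells, and the ratio was above 1 for 6 of the 7 (0.929 to 1.63). As examples, Dusp1, a phosphatase of MAP kinases, gave 2.24, 2.12 and 1.28 in ENZ-NONE replicates 4, 5 and 6, and the transcription factor Egr1 gave 2.48, 2.59 and 1.59. Within the member list the counts were small outside ENZ-NONE replicate 6. Cells with both Socs3 and Pim1 numbered 2, 1 and 88 in ENZ-NONE replicates 4, 5 and 6, against 1.66, 1.47 and 84.3 expected. Cells with both Socs3 and Stat3 numbered 8, 5 and 147, against 10.1, 8.68 and 131 expected. In DNC-NONE replicate 1 there were 39 cells with Pim1 (25.4 expected) and 106 with Stat3 (77.2 expected). These ratios describe cells of single libraries and carry no test. They are bounded by the shares of positive cells, so they do not rank libraries whose shares differ.

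Cells were clustered with the members and the activation genes left out, and clusters were named from fixed markers. Clusters 1 to 6 were microglia-like. Cluster 5, with 949 cells and led by Fos, Dusp1 and Ccl4, held the highest pooled Socs3 level among them at 1235 CPM, against 79.0 to 147 CPM in the other 5. Its pooled levels of Pim1 (133 CPM) and Stat3 (218 CPM) were also the highest of the 6. ENZ-NONE replicate 6 supplied 66.2% of this cluster, and 628 of its microglia-like cells were in it, against 116 in DNC-NONE replicate 1 and 1 to 42 in each other library. Without that library the cluster held 399.8 CPM of Socs3, 61.0 of Pim1 and 158 of Stat3, and without both high libraries 219, 34.7 and 122 CPM (63, 10 and 35 UMIs in 205 cells). Single libraries did not all share this difference for Pim1 and Stat3. In ENZ-NONE replicate 5 the 35 cells inside the cluster held 0 Pim1 and 3 Stat3 UMIs, a lower level of each than in its microglia-like cells outside. The high level was not restricted to that cluster. In microglia-like cells outside it Socs3 was at 628 CPM in ENZ-NONE replicate 6 and 309.7 CPM in DNC-NONE replicate 1, against 77.8 and 110.2 in ENZ-NONE replicates 4 and 5 and 24.1 to 53.5 in the other 8 libraries. Pim1 outside cluster 5 was at 69.1 and 59.2 CPM in ENZ-NONE replicate 6 and DNC-NONE replicate 1 and 12.6 to 24.0 in the other 10. Stat3 outside it was at 152 and 192 CPM, against 91.8 to 121 in the other 10.

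**Figure D5:**
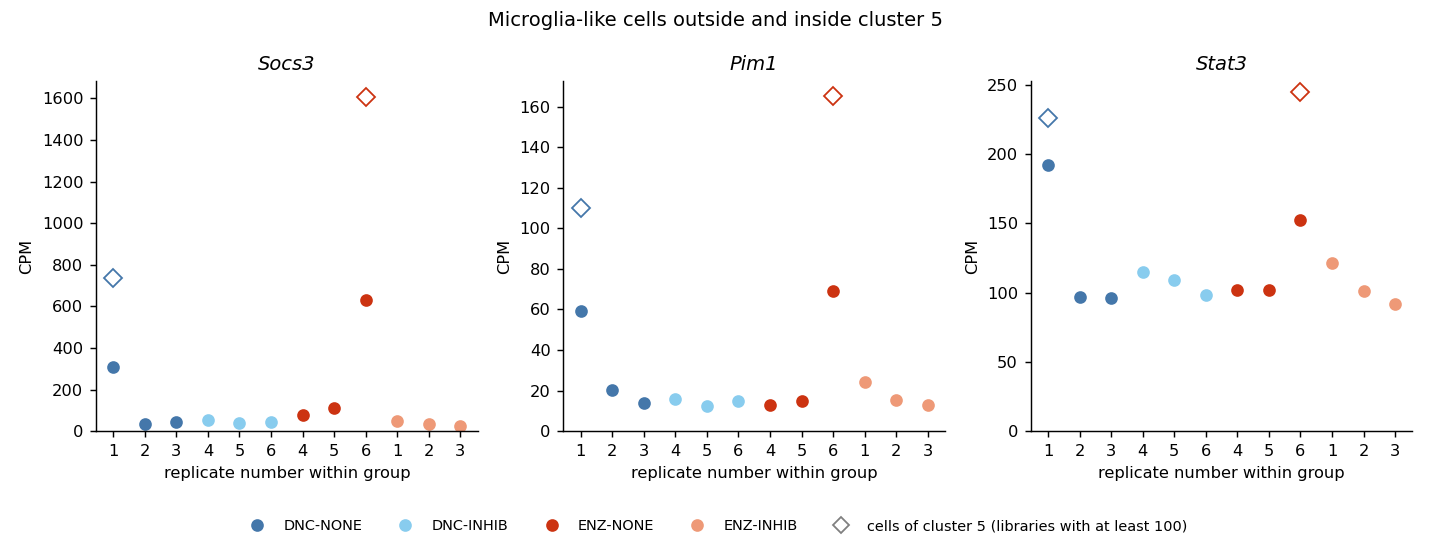
CPM (linear axes from 0) of Socs3, Pim1 and Stat3 in microglia-like cells of each library, outside cluster 5 (filled circles) and inside it (open diamonds, libraries with at least 100 such cells). Outside cluster 5, ENZ-NONE replicate 6 (628 CPM of Socs3) and DNC-NONE replicate 1 (309.7 CPM) still lie above the other 10 libraries.

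Rarer cell classes carried the same members in few cells. In border macrophage-like cells Socs3 was at 540 CPM in ENZ-NONE replicate 6 (30 UMIs in 31 cells) and 165 CPM in DNC-NONE replicate 1 (9 UMIs in 33 cells), and at 0 to 74.4 CPM in the other 10 libraries. In interferon-responsive-like cells it was at 850 CPM in ENZ-NONE replicate 6 (36 UMIs in 29 cells) and 306 CPM in DNC-NONE replicate 1 (11 UMIs in 28 cells), and at 0 to 81.3 CPM elsewhere. The 2 libraries thus stood above the rest in these classes as in microglia-like cells. Monocyte-like cells did not follow that order, since ENZ-INHIB replicate 2 had the highest Socs3 value (436 CPM, 4 UMIs in 5 cells). Pim1 was higher outside microglia, at 190 CPM in the monocyte-like cluster (134 cells) and 362 CPM in cluster 11, 60 cells led by Cd209a and MHC class II genes, against 12.7 to 38.3 CPM in the microglia-like clusters other than cluster 5. Of the 58 Pim1 UMIs in cluster 11, 28 came from 8 cells of ENZ-NONE replicate 6, and without that library its level was 226 CPM (193 in the monocyte-like cluster). Without both high libraries the 2 clusters were at 209 and 158 CPM. By group, cluster 11 was at 208 CPM of Pim1 in DNC-NONE, 109.6 in DNC-INHIB, 1049 in ENZ-NONE (38 UMIs in 11 cells) and 184 in ENZ-INHIB. Socs1 was at 20.9 CPM (11 UMIs) in interferon-responsive-like cells and 4.65 to 8.45 CPM in the microglia-like clusters. Monocyte markers, of which 7 to 10 of 10 were detected per library, summed to 347, 200.04 and 271 CPM in DNC-NONE replicates 1, 2 and 3 and to 60.7, 71.0 and 222 CPM in ENZ-NONE replicates 4, 5 and 6. They summed to 39.8 to 144 CPM in the inhibited libraries, and their part in the Pim1 levels was not tested beyond the microglia-like values above.

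The rest of the pathway was read from lists of its other parts. No gene was called in the 3 comparisons of ENZ-NONE among the 4 other SOCS genes, the 2 other PIM kinases, the 4 Janus kinases, 5 tested of 6 other STATs, 7 tested of 25 ligands, 22 tested of 26 receptors and 10 other negative regulators. Over all genes 0.425% were called higher against DNC-NONE, 0.496% against DNC-INHIB and 0.385% against ENZ-INHIB. The most abundant gene of each list spanned a narrow range, with no difference called. Socs6 had 44.1 to 64.9 CPM, Pim3 10.4 to 19.8, the interferon gamma receptor chain Ifngr1 1503 to 1872, Jak1 143 to 184.8 and Stat6 72.1 to 99.2. The cytokine subunit Ebi3, the most abundant ligand gene, had 44.9 to 63.8 CPM. The phosphatase Ptpn1, which removes phosphate from Janus kinases, was the exception in level. It had 560.4 CPM in DNC-NONE replicate 1 and 584 CPM in ENZ-NONE replicate 6, and 225 to 385 CPM in the other 10 libraries.

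Among known STAT3 targets, 18 of 20 were tested and 1, Junb, was called higher in each of the 3 comparisons. The median log2 fold change of this list was 0.36 against DNC-NONE, 0.45 against DNC-INHIB and 0.63 against ENZ-INHIB, beside 0.00, 0.01 and -0.00 over all genes. The medians moved with the same library. Without ENZ-NONE replicate 6 they were -0.043, 0.030 and 0.13, with Junb still called higher and 1 target, Fgl2, called lower against DNC-NONE. Without both libraries they were 0.16, 0.030 and 0.13, and Gadd45g was called higher beside Junb in each comparison. Without DNC-NONE replicate 1 the first median was 0.55. Junb, an AP-1 subunit that is also an immediate early gene, had 1386, 1441 and 2603 CPM in ENZ-NONE replicates 4, 5 and 6, 774, 363 and 350.2 in DNC-NONE replicates 1, 2 and 3, and 294 to 408 in the inhibited libraries. Unlike Socs3, its ENZ-NONE libraries lay above all others. The log2 fold change of Junb was 1.91 (SE 0.26) against DNC-NONE, 2.22 (SE 0.27) against DNC-INHIB and 2.49 (SE 0.27) against ENZ-INHIB. Of 12 listed immediate early genes 11 were tested, and all 11 were called higher in each comparison, with medians of 2.83, 3.58 and 3.40. Without both libraries 10 of 11 were called against DNC-NONE (Egr2 excepted) and 11 in the other comparisons, with medians of 2.80, 2.62 and 3.31. The study had named Fos, Jun and Dusp1 in the signature it drew from these same data. Both lists were also chosen with earlier results known, so these counts are not independent support.

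The libraries that stood apart were described once more over the whole transcriptome, with no test, since they were singled out by the members themselves. Both DNC-NONE replicate 1 and ENZ-NONE replicate 6 were above all 10 other libraries for 232 of 9882 genes (2.35%). Socs3, Pim1 and Stat3 were among these, 3 of the 4 tested members. Of the 18 tested STAT3 targets 9 were as well, namely Bcl3, Myc, Mcl1, Ccnd1, Cebpb, Cebpd, Gadd45g, Batf and Arid5a. That list was chosen with earlier results of these data known, and the libraries were singled out by Socs3, Pim1 and Stat3. The count is therefore a description and not support for a role of the pathway. The receptor chains Csf2rb, Il4ra and Il2rg, the ligand Csf1, Jak3, Pim2 and Ptpn1 completed the pathway genes. None of the 11 immediate early genes showed that order. The order requires DNC-NONE replicate 1 to lie above the remaining ENZ-NONE libraries. All 11 genes had been called higher in ENZ-NONE than in DNC-NONE, so their absence was largely set beforehand. It is therefore not read as a difference between these genes and the STAT3 targets.

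The genes whose level ran most like that of Socs3 over the 12 libraries (Pearson's r of log2 CPM, a description that rests on depth and on shared libraries) were Gadd45g (r = 0.96), Arid5a (0.96), Klf10 (0.95), Runx1 (0.94) and Fam217b (0.94). Gadd45g, a stress-response gene, had 203, 44.3 and 51.1 CPM in DNC-NONE replicates 1, 2 and 3 and 113, 107 and 483 CPM in ENZ-NONE replicates 4, 5 and 6. These correlations rested in part on the 2 high libraries. Over the other 10 libraries Gadd45g kept r = 0.81, Arid5a 0.69 and Runx1 0.44. For Pim1 the nearest genes were Sbno2 (r = 0.97), Runx1 (0.96), Irf2bpl (0.95), Il4ra (0.95) and Cdkn2d (0.95), which fell to between 0.41 and 0.64 over the 10 libraries. For Stat3 they were Sbno2 (r = 0.96), Ikzf2 (0.95), Arid5a (0.95), Runx1 (0.94) and Gbp7 (0.94), which over the 10 libraries were at 0.81, 0.59, 0.69, 0.46 and 0.63. Socs3 itself correlated with Pim1 at 0.93 and with Stat3 at 0.91 over 12 libraries, and at 0.43 and 0.42 over 10. With Fos the order was the other way, at r = 0.82 over 12 libraries and 0.88 over 10. Of those 10, ENZ-NONE replicates 4 and 5 had 411 and 392 CPM of Fos, and the others had 0.390 to 4.15 CPM. The value over 10 libraries therefore largely sets 2 libraries against the rest. Socs1 and Socs3 had r = 0.02.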

How the data were processed

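The authors deposited raw UMI counts per gene and cell, 1 matrix per animal, of the barcodes that Cell Ranger 3.0.0 called as cells on an mm10 (GRCm38) reference, before the study's own cell filters and without normalization (10X Genomics 3′ version 2 kit; bcl2fastq and Seurat are also named in the submitters' processing notes). Collapsing reads to UMIs removes PCR copies. Intervals and floors (3 counts) cover counting error only, and cells of a library are not replicates.

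Kept cells had a minimum of 1000 UMIs and 500 genes, with no more than 10% of UMIs from mitochondrial genes. A marker rule for doublets (at least 3 genes and 5 UMIs of another brain cell type) removed 9 cells, too few to have worked, so doublets mostly remain. UMIs were summed per library and tested with edgeR 4.0.16 (R 4.3.3; TMM, filterByExpr, quasi-likelihood test, 4 groups, all 12 libraries), with DESeq2 1.42.0 as an alternative. The edgeR test was checked on simulated counts that gave all genes the same spread and held no library that stood apart. That check does not cover a gene such as Socs3. CPM here is UMIs scaled to 1000000 kept UMIs of a library. For shares, cells were thinned to 1000 UMIs, and libraries were compared by exact permutation (Python 3.11.15, scipy 1.17.1). Clusters (leidenalg 0.10.2, resolution 1, 2000 variable genes, 30 components, 20 neighbours) left out members, pathway and activation genes. Correlations used log2 CPM with a prior count of 2.

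Genes named were the 6 members, list genes called in a comparison of ENZ-NONE (as counts, with examples), the most abundant gene of each list, the 5 nearest genes by correlation for Socs3, Pim1 and Stat3, and genes singled out after their values were seen (Dusp1 and Egr1 as co-detection examples, Fgl2, and the genes high in both libraries that stood apart). The members and lists were chosen with earlier results of these data known. Settings varied were the normalization, test, count filter, batch, libraries, depth, cells, doublets and replicate block. Replicate numbers were not taken to pair samples. Each library came from 1 animal, and ENZ-NONE replicate 5 was in batch 1 whereas DNC-INHIB replicate 5 was in batch 2. Correlations of same-numbered deviations were not all above 0.1, a check that cannot exclude pairing. No column of another series was present.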

Additional observations from a re-analysis of the deposited data

Results flagged for a closer look

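The 9605 barcodes left out of the comparisons, most of them (9575) for having under 1000 UMIs, carried the same genes. Among these barcodes Socs3 was at 107, 101 and 804 CPM in ENZ-NONE replicates 4, 5 and 6 (lowest 101.2) and at 15.5 to 59.2 in the inhibited libraries. It was thus above the inhibited libraries in barcodes outside the main comparisons, which come from the same animals. DNC-NONE ran from 33.9 to 479 there, with replicate 1 highest as in the kept cells, so ENZ-NONE overlapped DNC-NONE. Fos was at 269 CPM or more in the left-out barcodes of ENZ-NONE, at 0 to 4.31 in those of the inhibited libraries and at 0 to 21.6 in those of DNC-NONE. No difference between these barcodes was tested.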

How the results depend on the processing

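Between 0 and 2 members were called under other settings. The share of all genes called is given only for some of the left-out libraries above. Against DNC-INHIB, 1 member (Socs3) was called with cells thinned to 1000 UMIs (adjusted p = 0.0447) and in microglia-like clusters alone (adjusted p = 0.0421), and 2 (Socs3 and Pim1) with the replicate block (Socs3 2.55, adjusted p = 0.0240; Pim1 1.66, adjusted p = 0.0373). The replicate block also gave 1 call, Socs3 at -1.40 (adjusted p = 0.0340), for ENZ-INHIB against DNC-NONE. Correlations of same-numbered libraries were 0.11, -0.02 and 0.15 in the first pair of groups and -0.08, -0.05 and 0.01 in the second. The same-numbered library was the best match for replicates 4 and 6 in the first pair and replicate 3 in the second. These few values cannot exclude pairing, and the numbers were not taken to pair samples. Without a low-count filter 1, 2, 2, 2, 0, 2 and 1 members were called in the 7 contrasts, in the order of ENZ-NONE against DNC-NONE, against DNC-INHIB and against ENZ-INHIB, then DNC-NONE against DNC-INHIB, ENZ-INHIB against DNC-INHIB and DNC-NONE, and the difference of inhibitor effects. The estimated spread used for Socs3 was then 0.668 against 28.0 with the filter, while its deviance was 493 and 488. The fit without the filter thus took little of the spread between libraries into account, and its calls are not read as differences. Leaving out libraries gave 0 to 1 member called in each comparison of ENZ-NONE and 0 in the others.

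Over left-out libraries Socs3 ran from -0.58 to 3.47 against DNC-NONE, 1.15 to 3.73 against DNC-INHIB and 1.31 to 3.88 against ENZ-INHIB. It ran from -0.22 to 2.14 for DNC-NONE against DNC-INHIB, -0.50 to 0.12 for ENZ-INHIB against DNC-INHIB, -2.30 to 0.0624 for ENZ-INHIB against DNC-NONE and -0.42 to 3.63 for the difference of inhibitor effects. Pim1 ran from -1.02 to 1.59 against DNC-NONE, 0.31 to 2.27 against DNC-INHIB, 0.083 to 2.04 against ENZ-INHIB and 0.27 to 1.68 for DNC-NONE against DNC-INHIB. Stat3 ran from -0.33 to 0.57, -0.0406 to 0.51 and -0.026 to 0.53 in the comparisons of ENZ-NONE and from -0.21 to 0.48 for DNC-NONE against DNC-INHIB. Socs1 ran from -0.27 to 0.43 against DNC-NONE and -0.0868 to 0.34 against ENZ-INHIB. Socs1 also changed sign against DNC-NONE without a count filter (0.003007) and in DESeq2 (0.0088), and against ENZ-INHIB with thinned cells (-0.14), all barcodes (-0.18), microglia-like clusters (-0.0257) and without the 5% of cells with most UMIs (-0.0334). The difference in Socs3-positive share ran from 1.37 to 21.1 points over left-out libraries, its Fos-negative counterpart from 0.330 to 16.4, and the co-detection difference from 7.98 to 14.1. Without DNC-NONE replicate 1 the first was 16.2 and the second 12.7, and without both high libraries the first was 3.47. The causes were not tested.

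Thinned to 2000 UMIs, 1249 cells remained and 1 library reached 20 Fos-positive cells. With 3 libraries a group, exact tests between 2 groups cannot pass 0.05, and Socs2 and Cish lie near or under the floor of 3 counts.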
